A study of Mus musculus with 39 samples.

Results

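The mRNA levels of 42 genes of fatty acid oxidation and of the nuclear receptor PPARα were followed in 4 tissues of male Prf1−/− mice, kidney, liver, lung and skin. The genes were taken by symbol from a list that was chosen with earlier results of these data known. All 42 were found among the 24537 genes counted in kidney, liver and lung and among the 52508 gene symbols counted in skin. The 39 libraries were made by a bulk form of MARS-seq, which reads the 3′ ends of transcripts. In each tissue 3 groups were compared, namely young mice of 3 months that were not treated (4 mice, and 3 in skin), mice of 20 months given vehicle (3 mice) and mice of 20 months given ABT-737 at 25 mg/kg (3 mice). ABT-737 blocks BCL-2 family proteins that hold back apoptosis. It, or its DMSO-based vehicle, was given by intraperitoneal injection, starting at 18 months, with doses on 2 days running in every month, over 2 months.

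All mice of every group lacked Prf1, the gene of perforin, the protein with which cytotoxic lymphocytes open the membrane of their targets, and no wild-type mice were among the groups, so nothing below can be assigned to the deletion. The background was C57BL/6. Old mice were injected and young mice were not, so age and injection cannot be told apart in the comparison of vehicle with young. The libraries of a group carry replicate numbers and were read as separate mice, and p-values measure only the spread between these samples.

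Fatty acids enter a cell through transporters and binding proteins, are joined to coenzyme A, and pass into mitochondria as carnitine esters. There they are shortened by repeated rounds of dehydrogenation, hydration, dehydrogenation and thiolysis, with electrons leaving through the electron transfer flavoprotein, while very long chains are first shortened in peroxisomes by a separate set of enzymes. PPARα is a nuclear receptor that binds fatty acids and, paired with RXR, switches on many genes of both pathways, above all in the liver during fasting, but also in the proximal tubule of the kidney. The list holds 4 genes of uptake and activation, 4 of the carnitine shuttle, 12 of mitochondrial β-oxidation, 3 of electron transfer, 8 of peroxisomes, 4 acyl-CoA thioesterases, 1 gene of ketone metabolism, and Ppara with 5 further genes widely used as readouts of it.

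PPARα and RXR bind DNA at paired copies of the hexamer AGGTCA set 1 base apart, so the proximal promoters of the genes were searched for it. RefSeq promoter sequences (GRCm38.p6) were found for 36 of the 42 genes, with 39 promoters, and the 250 bases before the start were read on both strands. The hexamer AGGTCA lay in 9 of the 39 promoters (23.1%), against 14% of all 32851 mouse promoters, and these belonged to Acadm, Acadvl, Acot4, Cd36, Cpt1a, Echs1, Fabp1, Plin2 and Slc27a2. The looser pair AGGNCANAGGNCA, in which N is any base and which overlaps the first motif, lay in 1 of the 39 (2.56%), that of Fabp1, and in 0.338% of all promoters. A match is a description of these letters alone. The promoters of Fabp1, Slc27a2, Cpt1a and Acot4 are printed because their genes span the patterns below, a gene of liver above all, a gene of kidney and liver, and genes that moved in skin or are close kin of one that did. Capitals mark the motif, which in all 4 lies on the opposite strand.
Fabp1: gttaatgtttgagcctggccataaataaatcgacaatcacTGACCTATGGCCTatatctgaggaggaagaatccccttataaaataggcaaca
Slc27a2: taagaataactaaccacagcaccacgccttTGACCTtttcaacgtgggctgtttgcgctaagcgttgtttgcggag
Cpt1a: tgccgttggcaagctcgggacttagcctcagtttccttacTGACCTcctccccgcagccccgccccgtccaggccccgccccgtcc
Acot4: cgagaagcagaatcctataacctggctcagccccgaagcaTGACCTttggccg
These stretches lie, all on the plus strand, at chr6:71199772-71199864 for Fabp1, chr2:126552774-126552849 for Slc27a2, chr19:3323167-3323252 for Cpt1a and chr12:84038326-84038378 for Acot4, and the motif begins 67, 220, 94 and 13 bases before the start of the gene, respectively.

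Total counts per library ranged from 1431814 to 3513311 in kidney, 223957 to 891116 in liver, 1046508 to 2600092 in lung and 1493411 to 3842808 in skin. Liver therefore had the largest counting error, and 5583 of its genes could be tested, against 11123 in kidney, 11949 in lung and 14224 in skin. The biological coefficients of variation between mice were 34.9% in skin, 31.7% in lung, 23.5% in liver and 16.5% in kidney. Each is over the genes tested in that tissue, so the tissues are not compared on the same genes. The shallowest library, liver vehicle replicate 3, stood apart. It had the lowest level of all 10 liver libraries for 18 of the 35 listed genes tested there. The numbers of listed genes called in liver are therefore given with and without it. Log2 changes of single liver genes include it unless stated otherwise. Markers of the labelled tissue were present, with all 10 hepatocyte markers in each liver group, all 10 tubule markers in each kidney group, all 10 epithelial markers in each lung group and all 10 keratinocyte markers in each skin group. Prf1 had 0 to 169 counts per library, highest in skin vehicle, and since the deleted part of the gene is not stated here, it checks no label. Levels are given as CPM, which are counts scaled to a common library total and here corrected by TMM within a tissue (over the 3 tissues together in the comparison of young tissues, so that levels there differ in scale from those given later), and changes as log2 fold changes with their standard error (SE) and an adjusted p from edgeR, called where it was under 0.05.

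The first question was where the genes were used in young mice. Liver, kidney and lung were fitted together, without skin, which was counted on other gene models. Of the 41 genes tested, Fgf21 being under the filter, 39 differed between liver and lung (37 higher in liver), 39 between kidney and lung (36 higher in kidney) and 29 between liver and kidney (21 higher in liver). Tissues differ in most genes, and 69.4%, 74.7% and 51.5% of all genes passed the same tests. The median log2 difference of the listed genes was 3.05 for liver over lung, 2.11 for kidney over lung and 0.51 for liver over kidney, against −0.33, 0.03 and −0.34 for all genes tested.

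The uptake genes were split between the tissues. Fabp1, the fatty acid binding protein of liver and gut, was at 5790.0 ± 1762 CPM in young liver (SD, n = 4), had at most 2 counts in any young kidney library, and was at 5.86 ± 2.63 CPM in lung. Slc27a2, a very long-chain acyl-CoA synthetase and transporter, was at 1869.5 ± 165 CPM in kidney and 758 ± 88.8 CPM in liver, with no more than 3 counts in any young lung library, and fell by 1.30 on the log2 scale from kidney to liver (SE 0.154, adjusted p = 2.41e-08). Cd36, a fatty acid translocase known from capillaries, macrophages and tubules, was at 238 ± 37.0 CPM in lung and 78.0 ± 12.2 CPM in kidney but had at most 3 counts in any young liver library. Acsl1, which joins long-chain fatty acids to coenzyme A, was at 608 ± 25.0 CPM in liver, 65.1 ± 7.68 CPM in kidney and 38.0 ± 7.37 CPM in lung. Its excess in liver over kidney was 3.22 (SE 0.149, adjusted p = 1.35e-17).

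Several enzymes were liver genes first. The thiolases Acaa2 of mitochondria and Acaa1b of peroxisomes were higher in liver than in kidney by 2.63 (SE 0.150) and 2.66 (SE 0.193), and Decr2, Eci2, Hsd17b4, Acad11 and the ketone body enzyme Bdh1 by 1.18 to 2.11. Plin2, a coat protein of lipid droplets, was higher in liver by 2.44 (SE 0.136), and Angptl4, a secreted inhibitor of lipoprotein lipase, by 2.24 (SE 0.224). Others were kidney genes first. Ehhadh, the bifunctional enzyme of peroxisomes, was at 359 ± 33.4 CPM in kidney and 187 ± 41.2 CPM in liver, and Acadm, the medium-chain dehydrogenase, at 597 ± 110.4 and 303 ± 54.2 CPM. Cpt1a, the rate-limiting step of entry into mitochondria, did not differ past the threshold between liver (284 ± 46.5 CPM) and kidney (256 ± 21.0 CPM), nor did Acot1 (71.6 ± 27.7 and 102 ± 13.2 CPM), a cytosolic thioesterase. Cpt1b, the muscle form of the same step, had 0 counts in all 4 young liver libraries and was at 8.84 ± 2.21 CPM in kidney.

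Ppara itself was highest in liver, at 254 ± 33.8 CPM, then kidney at 120.3 ± 34.0 CPM, and lowest in lung at 5.94 ± 1.80 CPM. The steps from lung to liver (5.38, SE 0.233, adjusted p = 2.07e-18) and from lung to kidney (4.31, SE 0.224, adjusted p = 1.41e-16) both passed. Genes with few counts in lung stood far above it elsewhere. Bdh1 was higher in liver by 6.73 (SE 0.191) and Ehhadh higher in kidney by 7.24 (SE 0.225), with at most 14 and 8 counts in any young lung library. Acaa1b, Acad11, Etfdh, Etfa and Crot were also among the genes with the smallest p in both comparisons with lung. Pdk4, a kinase that holds back the use of glucose, was low in all 3 young tissues, at 6.19 ± 1.46 CPM in kidney, 5.93 ± 2.28 CPM in lung and no more than 1 count in any liver library. Vnn1 had 2 to 15 counts per young lung library, and Fgf21 had 0 counts in young kidney and lung and at most 3 in a young liver library.

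**Figure D1:**
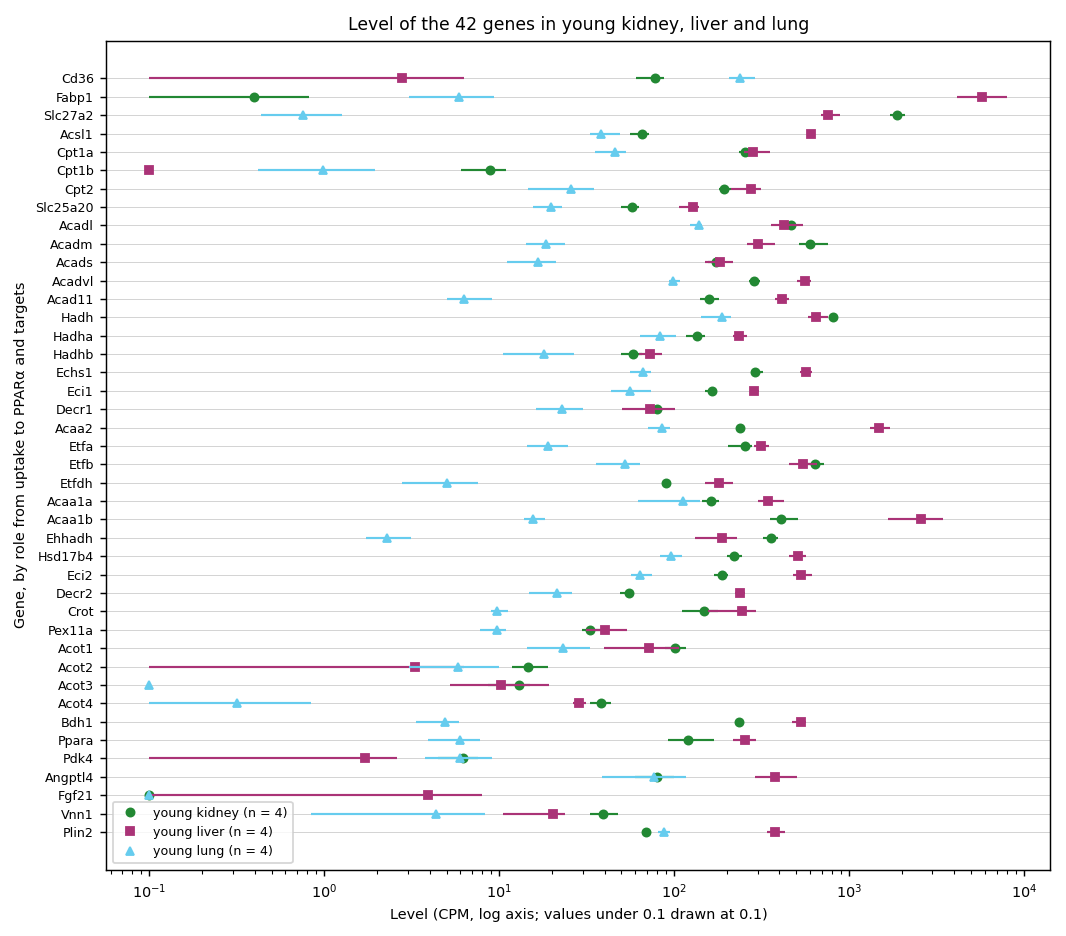
Level of each of the 42 genes in young kidney (circle), liver (square) and lung (triangle), in CPM on a log axis. Points are means of 4 mice and lines run from the lowest to the highest mouse, with values under 0.1 drawn at 0.1. Most genes sit far to the left in lung, Fabp1 reaches 5790.0 CPM in liver, and Cd36 alone among the uptake genes is highest in lung.

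In liver the genes were lower in old vehicle-treated mice than in young ones. Of the 42, 35 were tested, and Acot2, Acot3, Cd36, Cpt1b, Fgf21, Pdk4 and Vnn1 fell under the filter on low counts. 16 of the 35 passed, all of them lower in vehicle, where 22.6% of all genes tested in liver passed in either direction. The median log2 change of the 35 was −0.72, with 29 lower and 6 higher, against 0.02 for all genes tested. In bulk tissue, fewer cells of a type and less RNA per cell cannot be told apart. By role, 3 of 3 uptake genes passed, 6 of 12 of mitochondrial β-oxidation, 2 of 3 of electron transfer, 4 of 8 of peroxisomes and the ketone gene Bdh1, but 0 of 3 of the carnitine shuttle, 0 of 2 thioesterases and 0 of 3 of Ppara and its readouts.

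Among the genes that passed, Etfa fell most. This gene, which encodes 1 chain of the electron transfer flavoprotein, stood at 256, 203, 230.4 and 215 CPM in young liver, at 8.73, 52.7 and 64.2 CPM in vehicle and at 31.7, 58.8 and 37.1 CPM with ABT-737. No old library reached a young one, and Etfa fell by 2.23 on the log2 scale in vehicle (SE 0.332, adjusted p = 0.000261) and by 2.34 with ABT-737 (SE 0.352, adjusted p = 0.00145). Etfdh, which passes the electrons on to the respiratory chain, fell by 1.65 (SE 0.345, adjusted p = 0.00311) and by 1.75 (SE 0.370, adjusted p = 0.00854). The partner chain Etfb did not follow. It was at 331 to 483 CPM in young liver, 964, 457 and 527 CPM in vehicle and 503 to 651 CPM with ABT-737, a log2 change of 0.70 in vehicle (SE 0.263, adjusted p = 0.0646), and 67.3% of the 50-base windows in its last 1000 transcript bases also occur in the gene model Gm45233.

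Enzymes of mitochondria and peroxisomes were next. Acad11, a dehydrogenase of long chains, ran from 276 to 324 CPM in young liver and from 100.4 to 140.5 CPM in vehicle, without overlap (fall of 1.2, SE 0.206, adjusted p = 0.000718). Decr1, an auxiliary enzyme for unsaturated fatty acids, had 22 to 47 counts per young library and 1, 15 and 15 in vehicle. It fell by 1.69 (SE 0.356, adjusted p = 0.00325), and Acadl, the long-chain dehydrogenase, by 0.95 (SE 0.221, adjusted p = 0.00632). Crot, the carnitine octanoyltransferase that exports shortened chains from peroxisomes, stood at 180.1, 199.7, 210.4 and 115 CPM in young, 4.36, 81.9 and 20.5 CPM in vehicle and 51.5, 58.8 and 12.4 CPM with ABT-737, and it fell by 2.06 in vehicle (SE 0.494, adjusted p = 0.00763). Its vehicle mice were spread widely, yet the highest of them was below the lowest young mouse. In vehicle replicate 3 the 4.36 CPM of Crot is 1 count, and 8.73 CPM, as for Etfa and Cpt1a, is 2 counts. Slc27a2 fell by 1.63 (SE 0.348, adjusted p = 0.0036) from 506 to 633 CPM in young to 48.0, 206 and 252 CPM, and Bdh1 by 1.42 (SE 0.344, adjusted p = 0.00812). Acaa2, Acadm, Eci1 and Eci2 fell by 0.72, 1.11, 0.66 and 0.76, with adjusted p from 0.0253 to 0.0448. Cpt1a, at 184 to 252 CPM in young, was at 8.73, 159 and 114 CPM in vehicle, a log2 change of −0.97 (SE 0.397) that did not pass (adjusted p = 0.0908). Without liver vehicle replicate 3, 18 genes passed, and without young replicate 4, 10. Etfa, Acad11, Etfdh, Decr1, Slc27a2, Acsl1, Acadl, Crot, Bdh1 and Hsd17b4 were called with each of the 10 libraries left out in turn.

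ABT-737 raised a subset of these genes in the old liver. 7 of the 35 were higher with ABT-737 than with vehicle and 0 lower, where 3.85% of all genes tested in liver passed in either direction, with no overlap of the 2 groups in any of the 7. Without regard to the test, the groups did not overlap in 12 of the 35 genes and in 18.1% of all genes tested. The count of 7 fell to 3 when only vehicle and ABT-737 were fitted and to 0 with the replicate number as a block. The median log2 change of the 35 was 0.43, with 29 higher and 6 lower, against −0.03 for all genes tested. They were 2 of 3 uptake genes (Acsl1 and Fabp1), 2 of 8 peroxisomal genes (Hsd17b4 and Acaa1b), 1 of 2 thioesterases (Acot1), 1 of 12 genes of mitochondrial β-oxidation (Eci1) and Ppara, while 0 of 3 genes each passed for the carnitine shuttle and electron transfer.

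Acsl1 (chromosome 8, 46471037 to 46536051, plus strand) stood at 127, 185 and 238 CPM in vehicle replicates 3, 4 and 5 and at 749, 848 and 451 CPM in the ABT-737 replicates of the same numbers, with 420.1 to 459 CPM in young. It rose 3.65-fold with ABT-737 (log2 1.87, SE 0.281, adjusted p = 0.00137), after a fall of 1.23 from young to vehicle (SE 0.264, adjusted p = 0.00363). All treated mice lay above the vehicle mice, and 2 of the 3 lay above the young mice by more than their range. Acot1 (chromosome 12, 84009502 to 84017669, plus strand) splits acyl-CoA back into free fatty acid in the cytosol. It was at 30.5, 21.1 and 15.4 CPM in vehicle (7, 18 and 12 counts) and 107, 235 and 54.5 CPM with ABT-737. The rise was 6.61-fold (log2 2.72, SE 0.501, adjusted p = 0.00522), and replicate 4 was the highest by far. Without it the change was 1.93 and the adjusted p 0.0646.

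Fabp1 (chromosome 6, 71199888 to 71205023, plus strand) was at 2994, 608 and 791 CPM in vehicle and 6301, 5622 and 4983 CPM with ABT-737, a rise of 3.88-fold (log2 1.96, SE 0.478, adjusted p = 0.0308). Vehicle replicate 3 lay within the young range of 2948 to 5890.0 CPM and the other vehicle mice far under it. Acaa1b (chromosome 9, 119148043 to 119157093, minus strand) showed the same picture, with 1370.3, 538 and 435 CPM in vehicle against 2267, 2415 and 2671 CPM, a rise of 3.18-fold (log2 1.67, SE 0.383, adjusted p = 0.0216). Reads of Acaa1b may be shared with its near copy Acaa1a, since 49.9% of the 50-base windows in its last 1000 transcript bases also occur there. From young to vehicle Fabp1 fell by 1.53 (SE 0.452, adjusted p = 0.0229) and Acaa1b by 1.28 (SE 0.362, adjusted p = 0.0188), with vehicle replicate 3 overlapping the young mice in both.

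Hsd17b4, the multifunctional enzyme that carries out the middle steps of peroxisomal oxidation, was at 183, 229 and 202 CPM in vehicle and 448, 479.9 and 421 CPM with ABT-737, and rose 2.18-fold (log2 1.12, SE 0.219, adjusted p = 0.00733). Its young level was 325 to 405 CPM, and the fall to vehicle was 0.83 (SE 0.205, adjusted p = 0.00908). Eci1 (chromosome 17, 24426683 to 24439316, plus strand), a mitochondrial isomerase for unsaturated chains, was at 113, 125 and 149 CPM in vehicle and 285, 266 and 205 CPM with ABT-737 (log2 0.94, SE 0.223, adjusted p = 0.0256). Acot1, at 28.3 to 76.8 CPM in young, was not among the genes that passed from young to vehicle. Ppara (chromosome 15, 85735564 to 85806851, plus strand) differed in pattern from Fabp1, Acsl1, Eci1, Acaa1b and Hsd17b4, the 5 that also fell in vehicle. It was at 159 to 209 CPM in young and at 170.2, 164 and 153 CPM in vehicle (log2 −0.18, SE 0.205, adjusted p = 0.567), but at 325, 294 and 238 CPM with ABT-737. The 3 treated mice were the highest of all 10, with a log2 change from vehicle of 0.82 (SE 0.220, adjusted p = 0.0493). Cpt2, the inner carnitine palmitoyltransferase, came closest among those that did not pass, at 122, 171 and 150.3 CPM in vehicle and 293, 259.9 and 253 CPM with ABT-737 (log2 0.83, SE 0.231, adjusted p = 0.0564).

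The number of genes past the threshold rested on few mice. Leaving out treated mouse 3, 4 or 5 left 4, 1 and 4. Leaving out vehicle mouse 4 left 3, and leaving out vehicle mouse 3, the shallow library, gave 11. Acsl1 was called with each of the 10 libraries left out in turn, with a change of 1.69 to 2.11, Acot1 and Hsd17b4 with 9 of 10, Acaa1b and Eci1 with 7, Fabp1 with 3 and Ppara with 1. Acot1 and Hsd17b4 lost their call without ABT-737 replicate 4, as did Acaa1b, Eci1, Fabp1 and Ppara. Vehicle mouse 4 was needed as well for Acaa1b and Eci1, treated mouse 5 for Acaa1b and treated mouse 3 for Eci1. None of the 7 changed direction in any of these fits.

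**Figure D2:**
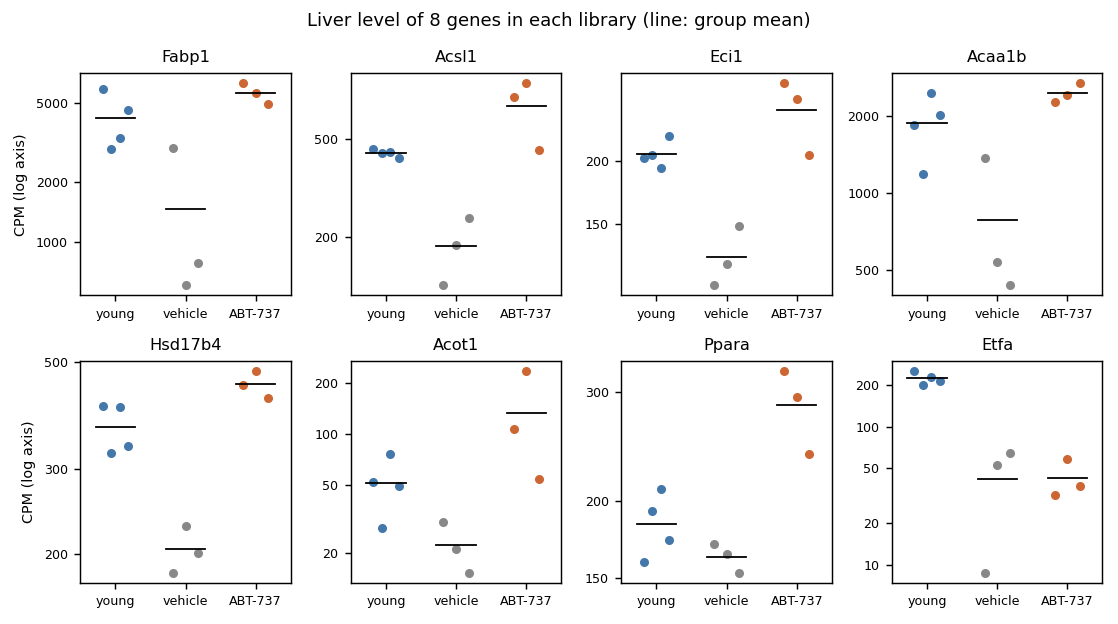
Liver level of 8 genes in each library, in CPM on log axes, for young, vehicle and ABT-737 mice, with a line at the group mean. In Fabp1, Acsl1, Eci1, Acaa1b, Hsd17b4, Acot1 and Ppara every ABT-737 mouse lies above every vehicle mouse, while in Etfa both old groups lie below the young range of 203 to 256 CPM.

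The comparison of ABT-737 with young shares its mice with the comparisons above and is given as values beside them. 7 of 35 genes passed, where 8.4% of all genes tested in liver passed. Besides Etfa and Etfdh, Crot fell by 2.11 (SE 0.526, adjusted p = 0.0224), Slc27a2 by 1.37 (SE 0.349, adjusted p = 0.0245), Decr1 by 1.25 (SE 0.368, adjusted p = 0.0454) and Acad11 by 0.68 (SE 0.203, adjusted p = 0.0479). Acot1 was higher in treated than in young mice by 1.39 (SE 0.403, adjusted p = 0.0428), but by 0.59 without ABT-737 replicate 4 (adjusted p = 0.445). Leaving out treated mouse 3 or 5 gave a count of 2, treated mouse 4 or young mouse 3 gave 3, young mouse 2 or 4 gave 4, and vehicle mouse 3 gave 13. Etfa alone of these was called with each library left out in turn. Against vehicle, Etfa, Etfdh, Crot and Slc27a2 had log2 changes of −0.11, −0.10, −0.05 and 0.26 with ABT-737, with adjusted p from 0.809 to 0.989.

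**Figure D3:**
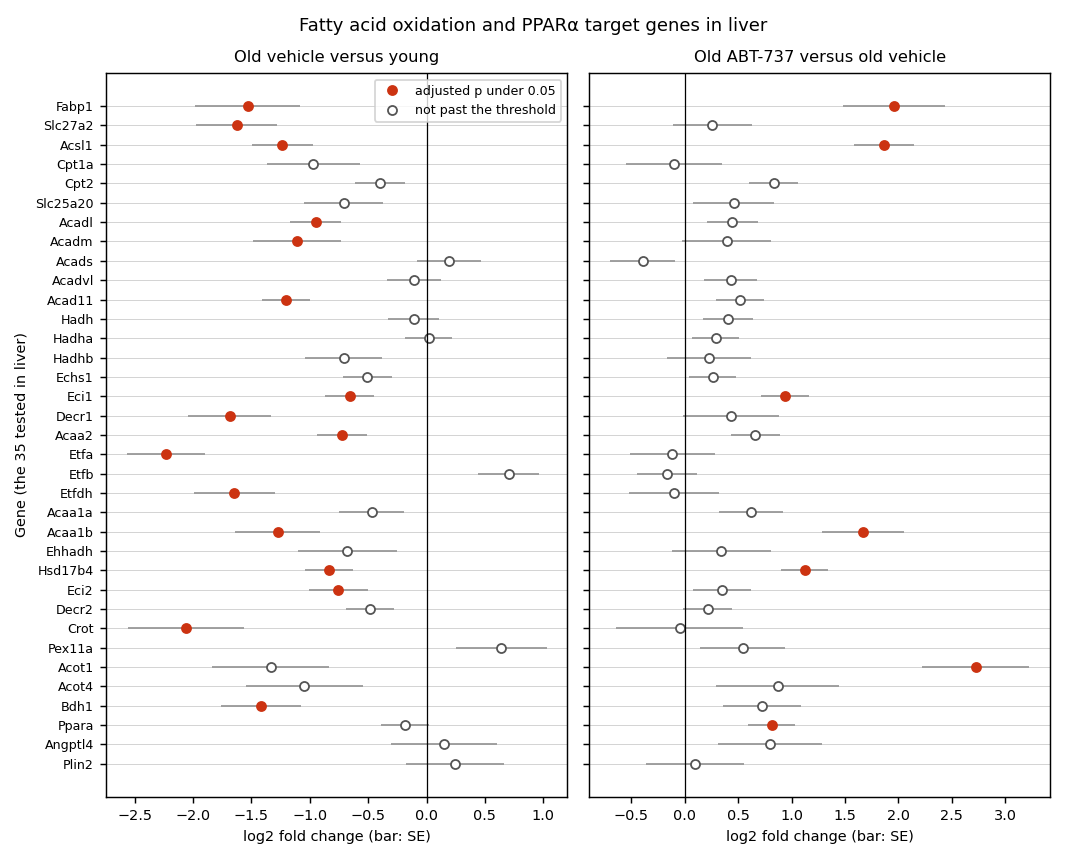
Log2 fold change (bars, SE) of the 35 genes tested in liver, from young to old vehicle on the left and from old vehicle to old ABT-737 on the right, with filled points at an adjusted p under 0.05. The 16 filled points on the left all lie under 0, down to −2.23 for Etfa, and the 7 on the right all lie over 0, up to 2.72 for Acot1, while Etfa, Etfdh and Crot sit near 0 on the right.

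Some other marks of the liver differed between the groups as well, and others did not. The summed level of the 42 genes was 12266 to 16355 CPM in young, 10439, 7240.1 and 6744 CPM in vehicle replicates 3, 4 and 5, and 14995 to 17813 CPM with ABT-737. The sum of 12 immune cell markers was 391 to 702 CPM in young, 2930 to 6214 CPM in vehicle and 550.1 to 1139 CPM with ABT-737, with Cd79a at 0 in all 3 groups. For 14 acute-phase genes, which hepatocytes raise in inflammation, it was 22741 to 32389 CPM in young, 39970 to 129083 CPM in vehicle and 28270 to 42372 CPM with ABT-737. The sum of 10 hepatocyte markers overlapped between groups, at 105164 to 121177, 91126 to 121895 and 108708 to 128028 CPM. That of 13 circadian clock genes was 488 to 652 CPM in young and 191 to 262 CPM in the old libraries of both groups, and the time of day at which tissues were taken is not given in the sources used here. Of the adipocyte markers, Plin1 and Lep were at 0 in every liver group, and the 10 summed to 1095 to 2436, 393 to 1775 and 1569 to 2312 CPM. Genes of fed-state lipogenesis summed to 3521 to 5344 CPM in young, 2017 to 4513 CPM in vehicle and 2802 to 7410 CPM with ABT-737. Scd1 is in this list and in that of adipocyte markers, so these sums are not independent. Whether the mice were fed or fasted is not given in the sources used here. What part immune cells, the acute-phase response, feeding or the clock had in these results was not tested.

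**Figure D4:**
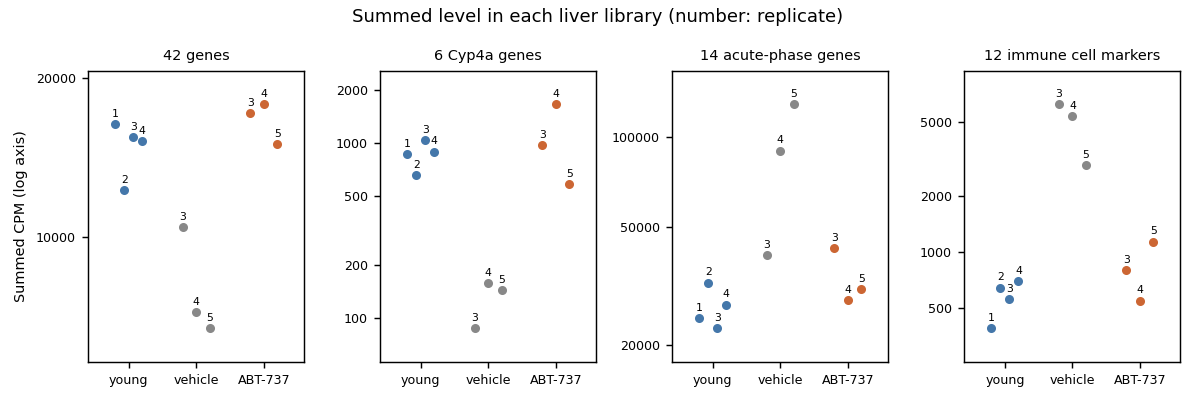
Summed level, in CPM on log axes, of the 42 genes, 6 Cyp4a genes, 14 acute-phase genes and 12 immune cell markers in each liver library, labelled by replicate number. The vehicle mice are the lowest for the 42 genes and for Cyp4a (87.3 to 158 CPM) and the highest in immune markers, and vehicle replicate 3, at 39970 CPM of acute-phase genes, lies below ABT-737 replicate 3 at 42372 CPM.

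The Cyp4a genes, whose ω-hydroxylases oxidise fatty acids from the other end, were not in the list of 42 and were read separately. Among them Cyp4a10 and Cyp4a14 are classic targets of PPARα. Of the 6 Cyp4a genes, 5 were tested in liver, and 3 fell in vehicle and rose with ABT-737. Cyp4a10 was at 225, 224, 588 and 288 CPM in young, 21.8, 55.0 and 39.8 CPM in vehicle and 598, 948 and 253 CPM with ABT-737. It fell by 2.97 (SE 0.483, adjusted p = 0.000488) and rose by 3.83 (SE 0.507, adjusted p = 0.000477), without overlap of vehicle with either group. Cyp4a12a fell by 2.66 (SE 0.363) and rose by 2.27 (SE 0.378, adjusted p = 0.00313), and Cyp4a12b fell by 2.95 (SE 0.636) and rose by 2.55 (SE 0.683, adjusted p = 0.0481), with 1 treated mouse within the vehicle range. The last 2 are near copies, with 45.0% and 45.4% of their 50-base windows shared, and Cyp4a10 shares 31.0% with Cyp4a32.

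Of 58 further genes of the pathway, 45 were tested in liver. 3 rose with ABT-737 and 0 fell. Cidec, a lipid droplet protein, was at 1.49 to 4.61 CPM in young, 26.2, 15.2 and 3.85 CPM in vehicle and 99.1, 41.7 and 47.0 CPM with ABT-737 (log2 2.24, SE 0.503, adjusted p = 0.0183). Retsat, a retinol saturase, rose by 1.45 (SE 0.366, adjusted p = 0.0356), and Aldh3a2, a fatty aldehyde dehydrogenase, by 1.16 (SE 0.309, adjusted p = 0.0466). From young to vehicle 12 of the 45 fell and 4 rose. Abcd3, the peroxisomal importer of long acyl chains, fell by 1.98 (SE 0.258, adjusted p = 9.18e-05). Tmem135, a membrane protein of peroxisomes, fell by 2.23 (SE 0.435, adjusted p = 0.00188). It was at 27.6 to 36.4 CPM in young and 5.85 to 8.73 CPM in vehicle, where 8.73 CPM is 2 counts in replicate 3. Acsm3, a medium-chain acyl-CoA synthetase, passed with 14 to 22 counts per young library and 0 to 5 per vehicle library, too few for a fold. Apoa4, an apolipoprotein of the fasted liver, rose by 1.94 (SE 0.268, adjusted p = 0.000148). With ABT-737 against young, 6 fell and 4 rose, among them Cidec (4.42, SE 0.590, adjusted p = 0.000627) and G0s2, an inhibitor of fat breakdown (2.80, SE 0.542, adjusted p = 0.0052). In young liver 1 count is 1.49 to 1.94 CPM. The change of Cidec against young therefore rests on very few counts, and its size is poorly determined.

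In kidney 40 of the 42 genes were tested, Fabp1 and Fgf21 being under the filter, and from young to vehicle the changes ran in both directions. 6 rose and 5 fell, 11 of 40, where 13.3% of all genes tested in kidney passed. The median log2 change was −0.03, against 0.01 for all genes tested. Genes that rose were Acsl1, the thioesterases Acot1 and Acot2, the peroxisomal thiolase Acaa1b and the readouts Pdk4 and Angptl4. Those that fell were the uptake genes Slc27a2 and Cd36, Acadm and Decr1 of β-oxidation, and Crot.

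Acsl1 was at 62.1 to 80.2 CPM in young kidney, 109, 196 and 158 CPM in vehicle and 155, 139.6 and 93.5 CPM with ABT-737. It rose in vehicle by 1.07 (SE 0.201, adjusted p = 0.00214), and every old mouse lay above the young ones. Acot1 was at 100.4 to 130.4 CPM in young and 174, 267 and 272 CPM in vehicle (log2 1.05, SE 0.243, adjusted p = 0.00905), and Acot2, its mitochondrial relative, rose by 1.07 (SE 0.295, adjusted p = 0.0246). Angptl4 was at 67.4 to 112 CPM in young, and 187, 544 and 148 CPM in vehicle (log2 1.69, SE 0.376, adjusted p = 0.00707). Pdk4 was at 5.08 to 8.49 CPM in young, 17.7, 83.5 and 18.8 CPM in vehicle and 45.7, 58.4 and 7.79 CPM with ABT-737 (log2 2.42 in vehicle, SE 0.595, adjusted p = 0.0134). In both Angptl4 and Pdk4 vehicle replicate 4 was far above the other vehicle mice. The same library had the highest sums of 10 adipocyte markers (832 CPM against 387 to 568 CPM elsewhere) and of 14 acute-phase genes (298 CPM against 31.3 to 144 CPM), whose part was not tested. Without it the changes were 0.90 (adjusted p = 0.0722) and 1.37 (adjusted p = 0.136). Acaa1b rose by 0.55 (SE 0.157, adjusted p = 0.0281), with young and vehicle overlapping.

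Cd36 was at 68.6, 97.0, 88.1 and 96.0 CPM in young and 63.6, 17.1 and 29.1 CPM in vehicle, a fall of 1.2 (SE 0.299, adjusted p = 0.014). Crot was at 127 to 201 CPM in young and 117, 44.5 and 60.1 CPM in vehicle (fall of 1.13, SE 0.281, adjusted p = 0.0139). In both genes vehicle replicate 3 lay near the lowest young mouse and the other vehicle mice well below it. Slc27a2 was at 1942 to 2323 CPM in young and 1570.2, 1463 and 1169.6 CPM in vehicle, a fall of 0.58 (SE 0.149, adjusted p = 0.0167). Acadm fell by 0.79 (SE 0.185, adjusted p = 0.0097) and Decr1 by 0.61 (SE 0.179, adjusted p = 0.0331). Ppara, at 104 to 188 CPM in young and 153 to 181 CPM in vehicle, did not pass (adjusted p = 0.269), nor did Cpt1a, at 265 to 312 and 214 to 246 CPM (adjusted p = 0.214). The count of 11 fell to 3 without vehicle replicate 4 and to 5 without vehicle replicate 5. Without vehicle replicate 4 all but Acsl1, Acot1 and Slc27a2 lost their call, and without vehicle replicate 5 Acot1, Crot, Cd36, Slc27a2, Acaa1b and Decr1 did. Acsl1 was called with each of the 10 libraries left out in turn.

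With ABT-737, 0 of 40 kidney genes passed against vehicle in edgeR, where 1.35% of all genes tested in kidney passed, and DESeq2 called 1. At an unadjusted p under 0.05 in edgeR there were 5, all higher with ABT-737, a share no larger than the 14.8% of all genes. Slc27a2 had the smallest p, at 1931, 1867 and 2208 CPM with ABT-737, above all vehicle mice (log2 0.52, SE 0.158, adjusted p = 0.126). The count was 2 without vehicle replicate 3. Against young, 2 genes were higher with ABT-737, where 2.12% of all genes passed, Pdk4 by 2.41 (SE 0.589, adjusted p = 0.044) and Acsl1 by 0.82 (SE 0.202, adjusted p = 0.0448). The Pdk4 level of ABT-737 replicate 5, 7.79 CPM, lay within the young range. Leaving out treated mouse 3 or 4 or any 1 of the 4 young mice gave a count of 0, vehicle mouse 5 gave 1, and treated mouse 5 or vehicle mouse 4 gave 4. The 12 immune markers summed to 1550 to 2265 CPM in young kidney, 7638 to 13704 CPM in vehicle and 2837 to 4133 CPM with ABT-737, and the 13 clock genes to 986 to 1126 CPM in young against 410.5 to 482 CPM in the old mice, and their part in the kidney results was not tested. The 10 tubule markers summed to 17739 to 19477 CPM in young, 16255 to 17168 CPM in vehicle and 18686 to 20787 CPM with ABT-737, with the vehicle mice below all others, as they were for Slc27a2, and their part was not tested either.

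Among the 58 further pathway genes, 51 were tested in kidney, and from young to vehicle 5 rose and 12 fell. Mfsd2a, a lipid transporter, fell by 2.35 (SE 0.306, adjusted p = 9.8e-05), Acsm1 by 1.25 (SE 0.177, adjusted p = 0.000203), Lpl, lipoprotein lipase, by 1.34 (SE 0.221, adjusted p = 0.000786) and Amacr, a racemase for branched chains, by 1.06 (SE 0.202, adjusted p = 0.00225). Lipe, hormone-sensitive lipase, rose by 1.18 (SE 0.194, adjusted p = 0.000746). With ABT-737 against vehicle Lpl was higher by 0.98 (SE 0.231, adjusted p = 0.0468) and Ucp2, a mitochondrial carrier, lower (log2 −0.91, SE 0.176, adjusted p = 0.0152). Against young, G0s2 was higher (0.80, SE 0.189, adjusted p = 0.0359) and Mfsd2a lower (−1.48, SE 0.282, adjusted p = 0.0119). Of 5 Cyp4a genes tested in kidney, Cyp4a14 rose by 2.54 in vehicle (SE 0.545, adjusted p = 0.00557), with 5.15 to 14.1 CPM in young and 8.64, 49.9 and 106 CPM in vehicle, and Cyp4a12b by 0.80 (SE 0.205, adjusted p = 0.0165). None of the 5 passed between ABT-737 and vehicle.

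Skin was counted on other gene models, so its levels are not set against those of the other tissues. 36 genes were tested, and Acot3, Acot4, Fabp1, Fgf21, Slc27a2 and Vnn1 were under the filter. From young to vehicle 3 rose and 4 fell, 7 of 36, where 11.2% of all genes tested in skin passed. The 2 forms of the outer carnitine palmitoyltransferase moved in opposite directions. Cpt1a was at 14.5, 9.78 and 13.2 CPM in young and 36.5, 62.3 and 40 CPM in vehicle, a rise of 3.71-fold (log2 1.89, SE 0.269, adjusted p = 0.0112). Cpt1b was at 113, 63.9 and 72.8 CPM in young and 19.8, 19.6 and 8.28 CPM in vehicle, and fell by 2.40 (SE 0.376, adjusted p = 0.0122). All 50-base windows in the last 1000 bases of Cpt1b also occur in the gene model Gm44502, which overlaps it on the same strand.

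Plin2 was at 21.7, 26.5 and 36.4 CPM in young skin and 88.3, 97.5 and 148 CPM in vehicle (log2 1.97, SE 0.301, adjusted p = 0.012), and Acot1 at 49.9 to 57.0 CPM and 125 to 151 CPM (log2 1.34, SE 0.215, adjusted p = 0.0124). Neither overlapped. Ppara was low, at 5.79, 4.60 and 6.37 CPM in young and 1.76, 1.07 and 0.552 CPM in vehicle (fall of 2.35, SE 0.504, adjusted p = 0.0242), which rests on 8 to 14 counts per young and 2 to 4 per vehicle library. The dehydrogenases Acadvl and Acads, for very long and short chains, fell by 0.86 (SE 0.230, adjusted p = 0.0428) and 1.01 (SE 0.274, adjusted p = 0.0436). Without young replicate 1 or young replicate 2 the count was 0, and without young replicate 3 or vehicle replicate 5 it was 4. Cpt1a, Plin2, Cpt1b and Acot1 were each called with 7 of the 9 libraries left out in turn, losing the call without young replicate 1 or 2.

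The same skin libraries differed in muscle. 10 skeletal muscle markers, all present in every group, summed to 62571 to 90517 CPM in young, 34894, 44284 and 9978 CPM in vehicle and 50116, 17249 and 16218 CPM with ABT-737, and Cpt1b is the form used by muscle. The 12 immune markers summed to 493 to 1707 CPM in young, 4888 to 5770 CPM in vehicle and 1303 to 3266 CPM with ABT-737. The 13 clock genes summed to 1319.9 to 1365 CPM in young and 183 to 408 CPM in the old mice. The 10 adipocyte markers summed to 632 to 2029 CPM in young, 978, 3602 and 1476 CPM in vehicle and 4437, 1780.3 and 1808 CPM with ABT-737, and 8 sebocyte markers to 89.7 to 190.1 CPM, 213 to 547 CPM and 134 to 277 CPM, with all of both lists present in each group. The part of these cells and genes in the skin results was not tested. Pdk4, another gene of muscle as well as of other tissues, was at 57.0 to 88.3 CPM in young, 217, 972 and 16.0 CPM in vehicle and 581, 254 and 57.6 CPM with ABT-737. In each old group Pdk4 was highest in the library with the most skeletal muscle and the most adipocyte marker counts. The young mice, with the highest muscle sums, had Pdk4 at 57.0 to 88.3 CPM, and the part of either cell type was not tested. Pdk4 was so widely spread that a log2 change of 2.49 in vehicle did not pass (SE 1.175, adjusted p = 0.179). Cd36 was at 2.17 to 8.64 CPM in young, 1.76 to 15.2 CPM in vehicle and 9.01 to 42.6 CPM with ABT-737 and did not pass in any comparison.

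With ABT-737, 0 of 36 skin genes passed against vehicle in edgeR, as did 0% of all genes tested, and DESeq2 called 0. In edgeR 1 had an unadjusted p under 0.05, where 7.97% of all genes did. That gene was Plin2, at 60.2, 36.0 and 56.7 CPM with ABT-737, below all vehicle mice (log2 −1.12, SE 0.288, adjusted p = 0.476). Against young, 4 of 36 passed, where 5.17% of all genes passed. Cpt1a was higher by 2.04 (SE 0.269, adjusted p = 0.0119), Acot1 by 1.58 (SE 0.216, adjusted p = 0.0125) and Angptl4 by 3.1 (SE 0.762, adjusted p = 0.0498), and Cpt1b lower by a log2 change of −2.43 (SE 0.375, adjusted p = 0.0163). Angptl4 was at 13.0, 14.4 and 26.4 CPM in young and 259.7, 165 and 43.6 CPM with ABT-737. Leaving out young mouse 1 or 2 or treated mouse 5 gave a count of 0, young mouse 3 gave 1, treated mouse 4 gave 2, vehicle mouse 5 gave 7 and treated mouse 3 gave 11. Of the 58 further genes, 50 were tested in skin. 6 rose from young to vehicle, Acsl5, Slc27a4, Tmem135, Acsl4 and Fabp5 by 1.07 to 3.37, and Acox2, which had 1 to 2 counts per young library and 8 to 33 per vehicle library. 3 were higher with ABT-737 than in young, Acsl5 by 0.93, Acsl3 by 1.98, and Acox2, with 9 to 23 counts per treated library. None passed between ABT-737 and vehicle.

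**Figure D5:**
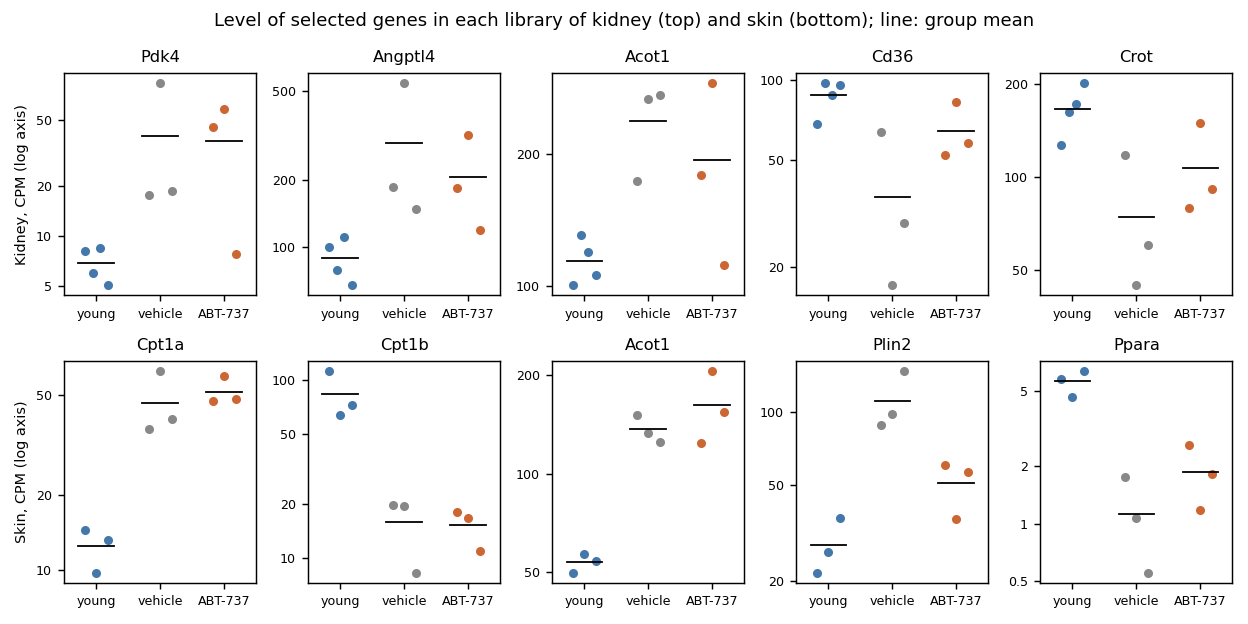
Level of 5 genes in each kidney library (top) and 5 genes in each skin library (bottom), in CPM on log axes, for young, vehicle and ABT-737 mice, with a line at the group mean. In kidney the young mice lie below the vehicle mice for Pdk4, Angptl4 and Acot1 and above them for Cd36 and Crot, with kidney Pdk4 at 83.5 CPM in 1 vehicle mouse. In skin Cpt1a and Cpt1b move in opposite directions, and both old groups lie on the same side of the young mice.

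In lung 36 genes were tested, and Acot3, Acot4, Cpt1b, Fgf21, Slc27a2 and Vnn1 were under the filter. From young to vehicle 1 of 36 passed, where 12.9% of all genes tested in lung did. It was Acad11, at 6.24 to 11.4 CPM in young and 20.8, 14.6 and 16.8 CPM in vehicle (log2 1.13, SE 0.335, adjusted p = 0.0399), the opposite direction to liver. Leaving out vehicle mouse 3 or young mouse 1, 2 or 4 gave a count of 0, treated mouse 5 gave 2 and vehicle mouse 4 gave 4. Acad11 itself lost its call also when vehicle mouse 5 was left out, where another gene passed. Between ABT-737 and vehicle 0 of 36 passed in edgeR, as did 0% of all genes tested, and DESeq2 called 0. In edgeR 3 had an unadjusted p under 0.05, a smaller share than the 16.1% of all genes. Acsl1 had the smallest p, at 23.5, 30.9 and 40.8 CPM in vehicle and 49.6, 135 and 51.5 CPM with ABT-737, without overlap (log2 1.27, SE 0.382, adjusted p = 0.142). ABT-737 replicate 4 was the highest of the 10 lung libraries for 18 of the 36 genes. In the same library 10 adipocyte markers summed to 8538 CPM, against 559 to 1058 CPM in the other 9, and 5 brown adipocyte markers to 727 CPM, against 5.98 to 25.1 CPM, and the 13 clock genes summed over the tissue to 1428 to 1696 CPM in young and 156 to 457 CPM in old mice. Their part in the lung values was not tested. Without ABT-737 replicate 4 the change of Acsl1 was 0.65.

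Against young, 0 of 36 lung genes passed with ABT-737 in edgeR, where 2.55% of all genes did, and DESeq2 called 2. In edgeR 7 had an unadjusted p under 0.05, all higher, a share near the 20.5% of all genes. Acadm came closest, at 17.9 to 29.9 CPM in young and 44.4, 43.2 and 51.9 CPM with ABT-737 (log2 1.02, SE 0.287, adjusted p = 0.0702), and without ABT-737 replicate 4, vehicle replicate 4 or vehicle replicate 5 the count was 1. Cd36, the fatty acid translocase, was at 257 to 362 CPM in young, 221, 250.5 and 58.7 CPM in vehicle and 263, 333 and 157 CPM with ABT-737. Vehicle replicate 5, the lowest, also had the fewest counts of 7 cardiac muscle markers, 72.9 CPM against 636 CPM or more elsewhere, the lowest sum of epithelial markers (30585 CPM against 39765 CPM or more) and the highest of acute-phase genes (7900.0 CPM against 2703 CPM or less) and immune markers. The immune sum was 11511 to 15628 CPM in young, 20423 to 40335 CPM in vehicle and 14033 to 29452 CPM with ABT-737, and the part of these cells was not tested. Acot1 was at 18.1 to 41.2 CPM in young, 112, 93.5 and 23.6 CPM in vehicle and 119, 73.8 and 52.8 CPM with ABT-737, Cpt1a at 43.7 to 66.1, 44.5 to 100.4 and 58.0 to 94.7 CPM, Ppara at 4.87 to 9.77, 1.87 to 7.29 and 7.73 to 13.9 CPM, and Pdk4 at 4.68 to 11.4, 3.74 to 29.6 and 4.92 to 71.7 CPM. Of these 4, the treated mice lay above all young mice for Acot1 and above all vehicle mice for Ppara, the other groups overlapped, and none passed. Of 49 further genes tested in lung, 4 rose and 2 fell from young to vehicle. Lpl (1.46), Mfsd2a (1.61), Ppargc1b (1.06) and Acox3 (0.94) rose, and Acsl5 (−1.34) and G0s2 (−1.25) fell. 3 were higher with ABT-737 than in young, Lpl (1.67), Fabp4 (4.46) and Acacb (1.77). Fabp4, an adipocyte gene, was at 1366 CPM in ABT-737 replicate 4 against 45.1 and 34.0 CPM in the other treated mice. None passed between ABT-737 and vehicle.

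Whether the effect of ABT-737 in liver differed from that in the other tissues was tested as the difference of the log2 changes in 1 fit over the 30 libraries of kidney, liver and lung. 0 of 41 genes passed for liver against kidney in edgeR, where 0.0839% of all genes did, and 0 of 41 for liver against lung, where 0.29% did. The 41 include Acot2, Acot3, Cd36, Cpt1b, Pdk4 and Vnn1, which were under the filter when liver was fitted alone. Their low liver counts leave these differences poorly determined, here and in the medians below. In edgeR 8 and 6 had an unadjusted p under 0.05, all with a larger change in liver, where 7.35% and 12.3% of all genes did, so that the share against lung was near that of all genes. DESeq2 called 3 and 1. The effect on Acsl1 was larger in liver than in kidney by 2.06 (SE 0.447, adjusted p = 0.0572) and on Acot1 by 2.99 (SE 0.696, adjusted p = 0.0932). Against lung the difference for Acot1 was 2.6 (SE 0.708, adjusted p = 0.1) and for Acsl1 0.57 (SE 0.460, adjusted p = 0.642). The median difference of the 41 was 0.47 against kidney and 0.30 against lung, beside −0.22 and −0.33 for all genes tested. The count was 1 against kidney without liver vehicle replicate 3 or 5 or without kidney vehicle replicate 3, and 1 against lung without liver vehicle replicate 3, lung vehicle replicate 5 or lung ABT-737 replicate 4. Of the Cyp4a genes, Cyp4a10 passed for liver against kidney (3.88, SE 0.647, adjusted p = 0.0134), where its level was 473 to 844 CPM in vehicle kidney and 403 to 929 CPM with ABT-737.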

How the data were processed

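Kidney, liver and lung shared 1 table and skin had its own, and both hold the raw counts per gene that the authors deposited, with nothing normalised. The submitters' processing notes name bcl2fastq, HISAT 0.1.5, HOMER and the build mm10, without roles. Whether molecular identifiers were collapsed and strand was used is not given in the sources used here, so genes overlapping on opposite strands (among the 42, Slc27a2, Acsl1, Acadl, Acadvl, Acad11, Hadha, Echs1, Acaa1a, Acaa1b, Ehhadh, Eci2, Crot, Pex11a, Acot3, Acot4 and Bdh1) may share reads. Columns were matched to mice by tissue, group and replicate number. The labels of ABT-737 replicates 4 and 5 carry other numbers for the compound in 1 field and were read as ABT-737 from their titles.

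Counts were fitted per tissue over all 3 groups with the quasi-likelihood test of edgeR 4.0.16 (R 4.3.3, limma 3.58.1), with TMM scaling, filterByExpr and Benjamini-Hochberg adjustment over all genes tested, at a threshold of 0.05. CPM of different fits are scaled apart. The scripts were tested on simulated data. Alternatives were DESeq2 1.42.0 as a test, its size factors, other filters on low counts (no filter beyond 1 count, or 10 counts in every library), a robust prior, only the compared groups, a replicate block and leaving out each library. Same-numbered vehicle and ABT-737 mice deviated together in lung (r 0.176 to 0.427 over genes) and not in kidney, liver or skin. In lung, mice of different numbers reached 0.303, and no label pairs the mice, so a pairing is not established.

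The 42 genes and all lists were chosen with earlier results of these data known. Named were the genes past the threshold, at most 12 per comparison by smallest p, the gene with the smallest p where none passed, Ppara, Cpt1a, Pdk4, Acot1 and Cd36 in every tissue, and at most 6 called genes of the 58 further pathway and 6 Cyp4a genes per comparison. Genes outside this rule (Etfb, Cpt2, Vnn1, Fgf21 and others given without a call) were chosen after their values were seen. Some genes of these further lists are counted but not reported here by name.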

Additional observations from a re-analysis of the deposited data

Results flagged for a closer look

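In groups of 4 young mice, 1 mouse stood apart by a gap that was a large share of the group's whole range in 5 of 111 groups tested (4.5%), where chance flags about 1 in 20. The share was 0.937 for Eci1 in kidney, where replicate 1 was lowest. It was 0.859 for Cpt1a in liver, where replicate 3 was highest at 252 CPM. In lung it was 0.860 for Acsl1 (replicate 4, highest at 60.8 CPM), 0.850 for Acadl (replicate 2, lowest) and 0.861 for Acad11 (replicate 3, highest at 11.4 CPM).

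Between tissues, the effect of ABT-737 on Cyp4a10 was larger in liver than in kidney by 3.88 on the log2 scale, by a test of the difference itself. Lpl differed as well, with fitted differences of −9.41 for liver minus kidney and −8.63 for liver minus lung. Lpl had 0 counts in liver in all 3 ABT-737 libraries and in vehicle replicate 3, so these fitted values depend on the prior count and are no bound.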

How the results depend on the processing

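Changes of single genes were followed under the alternatives only for the listed genes with the smallest p in each comparison, at most 12 per comparison. None of these changed direction under any alternative. Other listed genes (among them Etfb and Cpt2 in liver), the further pathway genes and the Cyp4a genes were not followed in this way. Over single genes, 1278 values kept their side of the threshold, 11 gained a call and 171 lost it. For the number of listed genes called, DESeq2 gave 1 for kidney ABT-737 versus vehicle, 2 for each lung comparison with young, 11 and 8 for skin vehicle and ABT-737 versus young, and 3 and 1 for the differences of the ABT-737 effect between liver and kidney and between liver and lung, where its size factors in edgeR gave 1 for kidney. With no filter beyond 1 count, ABT-737 versus young gave 5 in kidney, 1 in lung and 7 in skin. With at least 10 counts in every library it gave 0 in kidney and 2 in liver, and a robust prior gave 1 in kidney. With only the compared groups, ABT-737 versus young gave 15 in liver, 7 in skin, 4 in kidney and 2 in lung, liver ABT-737 versus vehicle 3 and lung vehicle versus young 3.

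With 1 library left out in turn, ABT-737 versus vehicle ran from 0 to 2 in kidney and 1 to 11 in liver, and stayed at 0 in lung and skin. Vehicle versus young ran from 10 to 18 in liver, 3 to 13 in kidney, 0 to 10 in skin and 0 to 4 in lung. ABT-737 versus young ran from 2 to 13 in liver, 0 to 11 in skin, 0 to 4 in kidney and 0 to 1 in lung. Both differences between tissues ran from 0 to 1. With the replicate number as a block, liver ABT-737 versus vehicle gave 0 in place of 7. Its numbers share only a number by the check of pairing (r −0.0442 to 0.160). In lung, where same-numbered mice deviated together, the block left 0 called, and it moved no other count by over 1.5 times. Depth limits liver most, with a shallowest library of 223957 counts.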
